A study of Mus musculus with 14 samples.

Results

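The genes described here are the contractile and receptor genes that mark smooth muscle cells and pericytes, measured in mouse lung. They were taken by gene symbol: every probe set of the array whose platform annotation names Acta2, Myh11, Tagln, Cnn1, Des, Actg2, Lmod1, Pdgfrb, Cspg4 or Notch3 was used. The rule gave 10 genes with 17 probe sets, out of 18194 genes and 45101 probe sets on the array. The study set lungs of BALB/c mice with a mammary tumour beside lungs of mice without one. In the 4T1 group, mice had received cells of the metastatic mouse breast carcinoma line 4T1 into the fourth mammary fat pad. The 67NR group had received cells of 67NR, a breast carcinoma line that the labels call non-metastatic, at the same site. The normal group had received phosphate-buffered saline without cells. The 4T1 group had 4 arrays, and the 67NR and normal groups had 5 each. Lungs were collected after perfusion with saline. In the 4T1 and 67NR groups this was at day 6 after inoculation or at a tumour volume near 50 mm3. No day of collection is recorded for the normal group. Age and sex are not given in the labels. Nothing in the labels ties each array to its own mouse, and the p-values below reflect only how these samples spread, which may be partly technical.

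Smooth muscle cells and pericytes are together called mural cells, because they wrap the wall of blood vessels. In lung, smooth muscle also surrounds the airways, and pericytes lie along the capillaries of the alveoli. Smooth muscle contracts through actin filaments (Acta2, Actg2) pulled by smooth muscle myosin (Myh11), with calponin (Cnn1), transgelin (Tagln), leiomodin (Lmod1) and the intermediate filament desmin (Des) bound to or alongside these filaments. Pericytes are recognised by the platelet-derived growth factor receptor beta (Pdgfrb), the proteoglycan NG2 (Cspg4) and the receptor Notch3, and both Pdgfrb and Notch3 receive signals from the endothelium that recruit or maintain mural cells. Many contractile genes are switched on by serum response factor (SRF) with its partner myocardin, which bind a short element named the CArG box.

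Array medians of the deposited intensities lay between 113.2 and 116.1, so the arrays were already on a common scale. Within a group, arrays differed from each other by a root mean square of 0.17 to 0.28 on the log2 scale, and 0 pairs were duplicates. The tissue label was checked by alveolar epithelium, whose 7 tested markers had intensities of at least 2080.1 on every 4T1 array, 2120.1 on every 67NR array and 2162 on every normal array. All 10 mural genes had a probe set over the level filter described below, and 0 of the 10 stood at 0 on any array. In whole lung RNA, fewer mural cells and less RNA per mural cell cannot be told apart.

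Promoter windows are shown for Acta2 and Cnn1, since their levels correlated over all 14 arrays, as described further on. Without 67NR replicate 5 that correlation did not pass the test. Each window runs from 250 bases before to 50 bases after the gene's start in RefSeq (GRCm38.p6), 5′ to 3′ on the gene's own strand. Capitals mark matches to the CArG box with at most 1 G or C inside its A/T core, and matches to TATAA, on either strand. The Acta2 window lies at chr19:34255324-34255623 on the minus strand, and the Cnn1 window at chr9:22099003-22099302 on the plus strand.
Acta2: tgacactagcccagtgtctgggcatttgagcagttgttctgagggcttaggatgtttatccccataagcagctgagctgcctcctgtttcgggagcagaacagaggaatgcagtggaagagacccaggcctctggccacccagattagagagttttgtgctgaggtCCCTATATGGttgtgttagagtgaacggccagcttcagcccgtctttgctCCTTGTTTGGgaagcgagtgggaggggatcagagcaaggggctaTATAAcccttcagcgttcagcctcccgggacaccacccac
Cnn1: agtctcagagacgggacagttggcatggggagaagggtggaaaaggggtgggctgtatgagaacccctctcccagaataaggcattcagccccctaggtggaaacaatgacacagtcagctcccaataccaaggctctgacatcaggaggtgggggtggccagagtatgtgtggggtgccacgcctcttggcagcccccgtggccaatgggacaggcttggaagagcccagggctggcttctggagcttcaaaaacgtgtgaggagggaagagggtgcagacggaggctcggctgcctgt
The Acta2 window held 2 such CArG forms, CCCTATATGG from base 167 and CCTTGTTTGG from base 217 of the window, which do not overlap, and 1 TATAA. Neither form is a strict CArG box, since each has 1 G or C in the core. The Cnn1 window held neither motif. The same table held windows for 6 of the 10 genes, and the windows of Des, Lmod1, Cspg4 and Notch3 held neither motif. Of all 32851 windows in the table, 9.98% held such a CArG form, 1.63% a strict CArG box, 0.822% at least 2 such forms and 24.9% TATAA. Windows for Myh11, Tagln, Actg2 and Pdgfrb were not used here. A window without a match says nothing about elements elsewhere in the gene.

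None of the 10 genes passed the test in any of the 3 comparisons. Levels were compared as log2(intensity + 16) of each gene's brightest probe set, with limma on 10916 genes over all 14 arrays, and a change means an adjusted p (Benjamini-Hochberg over those genes) under 0.05. Between 4T1 and normal lungs, 0 of the 10 genes were called, beside 45 of 10916 genes (0.412%), all 45 of them higher in 4T1 lungs. Between 67NR and normal lungs, 0 of 10 were called, beside 0 of all genes (0%). Between 4T1 and 67NR lungs, 0 of 10 were called, beside 83 of all genes (0.76%), of which 61 were higher in 4T1 lungs (0.559%) and 22 lower (0.202%). At an unadjusted limma p under 0.05, 1 of the 10 genes passed between 4T1 and normal lungs, beside 6.56% of all genes, and 0 passed in the 67NR against normal comparison (9.13% of all genes) and in the 4T1 against 67NR comparison (12.4%). The 4T1 and 67NR comparisons with normal lung share the normal arrays.

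For each gene's brightest probe set, unadjusted 95% intervals give a range for the difference between groups, 1 gene at a time. Some intervals of the other probe sets reached further. In 4T1 against normal lungs the 95% intervals of the fold reached down to 0.835 (Cnn1) and up to 1.38 (Actg2). In 67NR against normal lungs they reached down to 0.788 (Cnn1) and up to 1.34 (Lmod1), and in 4T1 against 67NR lungs down to 0.816 (Pdgfrb) and up to 1.37 (Cnn1). These bounds are not limits of detection, since a call needed an adjusted p under 0.05. Larger differences could also go uncalled with 4 or 5 arrays a group. The estimated log2 change was positive for 9 of the 10 genes in 4T1 against normal lungs, where 49.5% of all genes were positive, with a median of 0.09 against -0.00077 over all genes tested. It was positive for 7 of 10 in 67NR against normal lungs, with a median of 0.04 (49.6% and -0.0010 over all genes). In 4T1 against 67NR lungs it was positive for 7 of 10, with a median of 0.05 (49.6% and -0.00079 over all genes). Some of the 10 genes varied together, as described further on, so these counts are a description. In 4T1 against normal lungs, 2 of the 6 genes with several probe sets kept 1 sign across them. Of 26 further contractile apparatus genes tested, 15 were positive in that comparison.

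**Figure D1:**
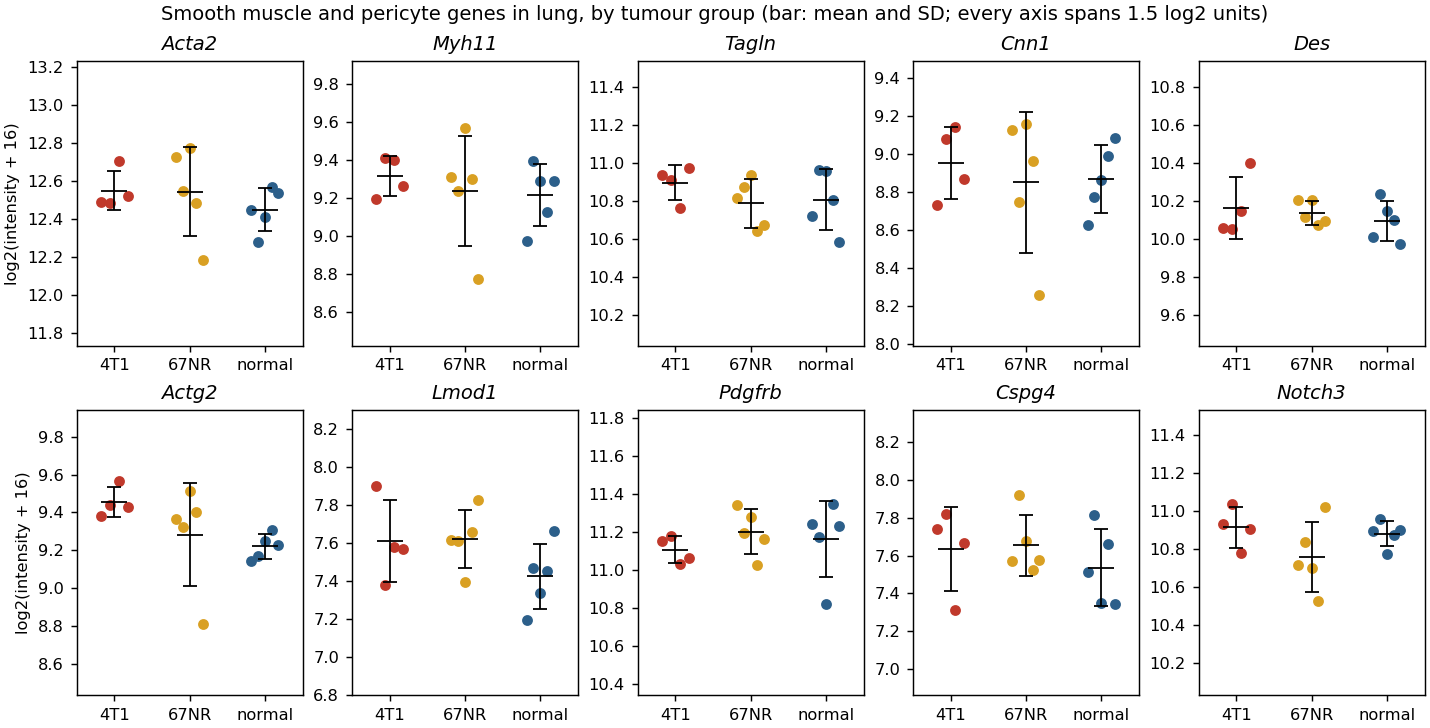
Level of each gene's brightest probe set as log2(intensity + 16), with a point per array and bars for the mean and SD of the 4 4T1, 5 67NR and 5 normal lungs; all panels have the same height in log2 units. Points of the groups intermix in every panel except Actg2, where all 4 4T1 lungs lie above all 5 normal lungs, and a lone 67NR lung lies low in the Acta2, Myh11, Cnn1 and Actg2 panels.

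Among the filament genes, Actg2, which encodes the gamma actin of smooth muscle, came nearest to a difference. Its intensities were 652, 679, 741 and 673 in 4T1 lungs, 644, 625, 714, 662 and 434 in 67NR lungs, and 551, 561, 594, 618 and 583 in normal lungs. Every 4T1 lung lay above every normal lung, and 4 of 5 67NR lungs did too, while 67NR replicate 5 lay below all other arrays. Groups that do not overlap were found between 4T1 and normal lungs for 1 of the 10 genes, beside 2.72% of all genes tested (1.4% with the 4T1 lungs higher), and for 0 of the 10 between 67NR and normal lungs (1.65% of all genes, 0.852% with the 67NR lungs higher) and between 4T1 and 67NR lungs (4.56%, and 2.35% with the 4T1 lungs higher). Actg2 averaged 686 ± 38.3 in 4T1 lungs (SD, n = 4) and 581 ± 26.5 in normal lungs (SD, n = 5). The log2 change in 4T1 against normal lungs was 0.23 ± 0.11 (SE), a fold of 1.18 with a 95% interval of 1.002 to 1.38. Its unadjusted limma p was 0.0475 and its adjusted p 0.751, so the difference did not pass the test. Without 67NR replicate 5 in the fit the adjusted p was 0.130 by limma, the lowest of the alternatives tried, whose highest was 0.9997. In the same comparison of 4T1 with normal lungs, 7 of 7 tested neutrophil markers passed the threshold upward, with a median log2 change of 2.34, and their summed intensity spanned 22196 to 30039.6 in 4T1 lungs and 3875 to 7033 in normal lungs. None of the 7 stood at 0, and the part of these cells in the Actg2 values was not tested.

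Acta2, the alpha actin that is the usual marker of smooth muscle and myofibroblasts, overlapped between all groups. Its intensities were 5727, 5706, 6649.8 and 5847 in 4T1 lungs, 6753, 5968, 6976, 5706 and 4638 in 67NR lungs, and 5569.8, 4947, 5422, 6047 and 5911 in normal lungs. The 67NR group held both the highest and the lowest array. Means were 5983 ± 449 in 4T1, 6008 ± 930 in 67NR and 5579 ± 434 in normal lungs (SD). The log2 change was 0.10 ± 0.10 in 4T1 against normal lungs (SE; adjusted p 0.960 by limma), 0.10 ± 0.10 in 67NR against normal lungs (adjusted p 0.822) and 0.0056 ± 0.10 in 4T1 against 67NR lungs (adjusted p 0.992). The suffix of this probe set, 1416454_s_at, marks probes that can match transcripts of more than 1 gene. The actin genes are close in coding sequence, and how far Acta2, Actg2 and cardiac actin RNA share signal on these probe sets was not tested.

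Myh11, the smooth muscle myosin heavy chain, had intensities of 571, 664, 661 and 599 in 4T1 lungs, 619, 588, 744, 614 and 422 in 67NR lungs, and 487, 657, 611, 544 and 609 in normal lungs. Again 67NR lungs gave the highest and the lowest array, and the groups overlapped. The log2 change was 0.10 ± 0.13 in 4T1 against normal lungs (SE; adjusted p 0.972 by limma) and 0.02 ± 0.12 in 67NR against normal lungs (adjusted p 0.971). Cnn1, a calponin that binds actin and restrains the myosin motor, had intensities of 409, 525, 548 and 450.2 in 4T1 lungs, 543, 414, 556, 483 and 289 in 67NR lungs, and 379, 422, 449, 492 and 527 in normal lungs. It showed the widest spread within groups of the 10 genes, an SD of 0.27 on the log2 scale, and 94.6% of all genes tested varied less. Its means were 483 ± 64.8 in 4T1, 457 ± 109 in 67NR and 454 ± 58.1 in normal lungs (SD), with adjusted p-values of 0.982, 0.983 and 0.859 by limma for 4T1 against normal, 67NR against normal and 4T1 against 67NR lungs.

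Tagln, or SM22, an actin-binding protein of early smooth muscle differentiation, averaged 1895 ± 118 in 4T1, 1761 ± 157 in 67NR and 1787 ± 197 in normal lungs (SD). Its intensities were 1945, 1915, 1726 and 1996 in 4T1 lungs, 1789, 1862, 1950.2, 1585 and 1617 in 67NR lungs, and 1677, 1980.2, 1977, 1779 and 1523 in normal lungs. The normal lungs alone covered nearly the whole range. Des, the muscle intermediate filament, averaged 1138 ± 136 in 4T1, 1113 ± 50.3 in 67NR and 1080.4 ± 79.7 in normal lungs (SD). Its highest array was 4T1 replicate 4 at 1336, and the other 3 4T1 lungs, at 1051, 1047 and 1120.3, lay inside the normal range of 992 to 1191. Lmod1, a leiomodin that starts actin filaments in smooth muscle, lay close above the level filter, an intensity of 147. Its intensities were 223, 151, 175 and 174 in 4T1 lungs, 180.3, 179, 152, 186 and 211 in 67NR lungs, and 131, 161, 146, 159 and 187 in normal lungs. The groups overlapped, with the highest 4T1 lung and the highest 67NR lung above every normal lung. The log2 change of Lmod1 was 0.18 ± 0.11 in 4T1 against normal lungs (SE; adjusted p 0.887 by limma) and 0.20 ± 0.10 in 67NR against normal lungs (adjusted p 0.608). The mean log2 level of the 7 contractile genes was 9.85 ± 0.04 in 4T1, 9.78 ± 0.16 in 67NR and 9.73 ± 0.08 in normal lungs (SD over arrays).

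The receptor genes lay as close together. Pdgfrb, through which platelet-derived growth factor B from endothelium recruits pericytes, had intensities of 2262, 2305, 2079 and 2124 in 4T1 lungs, 2585, 2326, 2475, 2074 and 2282 in 67NR lungs, and 2405, 2296, 1793, 2587 and 2392 in normal lungs. All 4T1 lungs fell within the normal range. The log2 change was -0.056 ± 0.09 in 4T1 against normal lungs (SE; adjusted p 0.979 by limma), 0.04 ± 0.09 in 67NR against normal lungs (adjusted p 0.922) and -0.096 ± 0.09 in 4T1 against 67NR lungs (adjusted p 0.734). Cspg4, the NG2 proteoglycan of the pericyte surface, averaged 184 ± 29.1 in 4T1, 186 ± 23.4 in 67NR and 171 ± 26.8 in normal lungs (SD). Its arrays ran from 143 to 209.9 in 4T1 lungs, 168 to 226 in 67NR lungs and 147 to 209 in normal lungs, close above the level filter as for Lmod1. Notch3, the Notch receptor that keeps arterial smooth muscle differentiated, had intensities of 1933, 2086, 1739 and 1902 in 4T1 lungs, 1664, 1811, 1645, 1455 and 2057 in 67NR lungs, and 1889, 1969.6, 1734, 1860.0 and 1896 in normal lungs. The groups overlapped, with 3 of 5 67NR lungs under every 4T1 and normal lung and 67NR replicate 5 among the highest. The log2 change of Notch3 was 0.15 ± 0.08 in 4T1 against 67NR lungs (SE; unadjusted limma p 0.0846, adjusted p 0.481) and -0.12 ± 0.08 in 67NR against normal lungs (adjusted p 0.684). The mean log2 level of the 3 receptor genes was 9.88 ± 0.13 in 4T1, 9.87 ± 0.11 in 67NR and 9.86 ± 0.13 in normal lungs (SD over arrays).

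**Figure D2:**
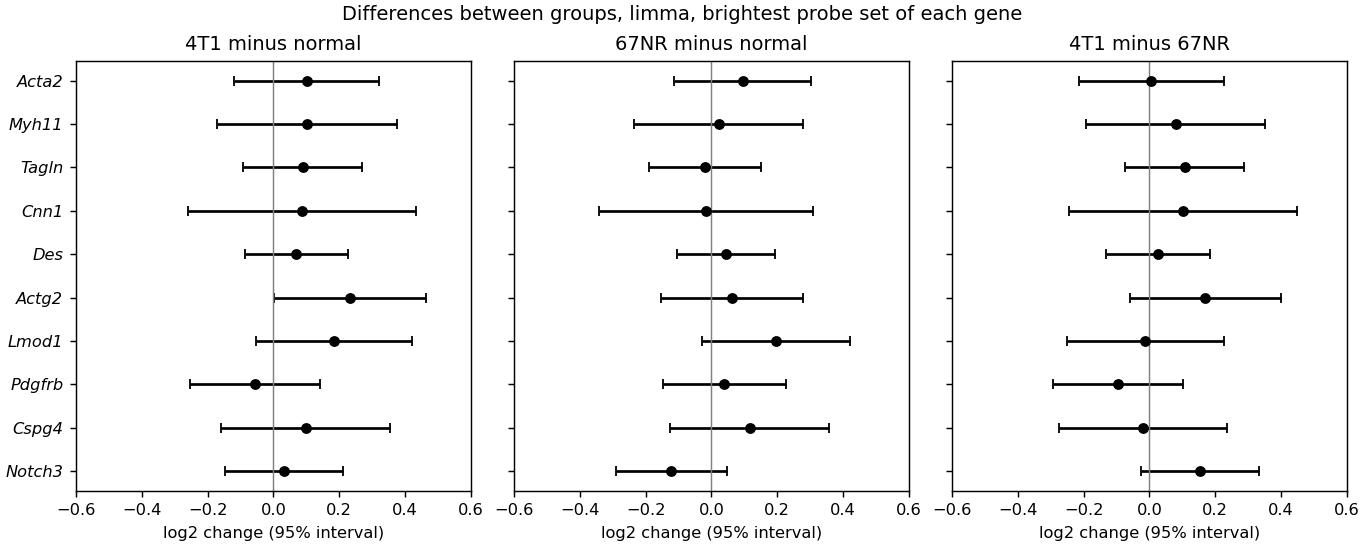
Log2 change of each gene's brightest probe set with its 95% interval from limma, in 4T1 minus normal, 67NR minus normal and 4T1 minus 67NR lungs. Every interval spans 0 except that of Actg2 in 4T1 minus normal lungs, whose adjusted p is 0.751.

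Further probe sets of a gene did not always take the same direction. Of the 6 genes with more than 1 probe set, all probe sets of a gene had the same sign for 2 genes in 4T1 against normal lungs, 1 in 67NR against normal lungs and 3 in 4T1 against 67NR lungs. A limma fit over all 34958 singly named probe sets called 0 of the 17 in each comparison, beside 0.186% of all in 4T1 against normal, 0.00286% in 67NR against normal and 0.217% in 4T1 against 67NR lungs. The probe set 1417148_at of Pdgfrb had intensities of 446, 475, 421 and 517 in 4T1 lungs, 696, 534, 555, 563 and 475 in 67NR lungs, and 569.8, 465, 434, 558 and 489.6 in normal lungs. The 4T1 lungs lay at the low end of the 67NR lungs and overlapped them, with a log2 change of -0.26 ± 0.11 (SE; adjusted p 0.502 over all probe sets by limma) and a 95% fold interval of 0.708 to 0.978. Its arrays followed those of 1436970_a_at with a Pearson r of 0.60 over 14 arrays after removal of group means. For Notch3 the probe sets went apart: 1421964_at had a log2 change of -0.13 in 4T1 against 67NR lungs where 1421965_s_at had 0.15, and their arrays had an r of -0.072. The brightest set, 1421965_s_at, carries the same suffix as the Acta2 set described above. Signal from other genes on it was not tested. The probe set 1418122_at of Myh11, at a mean intensity of 28.4, had a log2 change of -0.50 ± 0.25 in 4T1 against normal lungs (SE; adjusted p 0.899 by limma), opposite to the 0.10 of 1448962_at, with a fold interval that reached down to 0.483. The level filter left out 4 of the 17 probe sets, 2 of Acta2 and 1 each of Myh11 and Des, so Acta2, Myh11 and Des rest on their brightest probe set.

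The genes varied more among lungs of a group than most genes did. The SD within groups, on the log2 scale, was 0.27 for Cnn1, 0.21 for Myh11, 0.17 for Acta2 and 0.17 for Actg2, and 0.11 for Des. The median over all genes tested was 0.11, and 10 of the 10 genes lay above it. Some of the genes varied together. After removal of group means, 4 of the 45 gene pairs had a correlation across the 14 arrays past an adjusted p of 0.05 (permutation within groups, 100000 resamples, two-sided, adjusted over the 45 pairs), and all 4 were positive. The pairs were Cnn1 with Actg2 (r 0.89, rho 0.76, permutation adjusted p 0.022), Acta2 with Actg2 (r 0.85, rho 0.69, permutation adjusted p 0.044), Acta2 with Cnn1 (r 0.85, rho 0.69, permutation adjusted p 0.044) and Myh11 with Cnn1 (r 0.84, rho 0.69, permutation adjusted p 0.044). Over all 45 pairs the median r was 0.05, beside 0.010 over all pairs of tested genes. These correlations rest on few arrays. For each pair, r was also computed without the 2 arrays farthest from the first-named gene's median, which can differ between pairs. This r was 0.75 for Cnn1 with Actg2, 0.58 for Acta2 with Actg2, 0.63 for Acta2 with Cnn1 and 0.57 for Myh11 with Cnn1. Without 67NR replicate 5, 0 of the 45 pairs passed, and by Spearman correlation of all 14 arrays 0 passed.

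**Figure D3:**
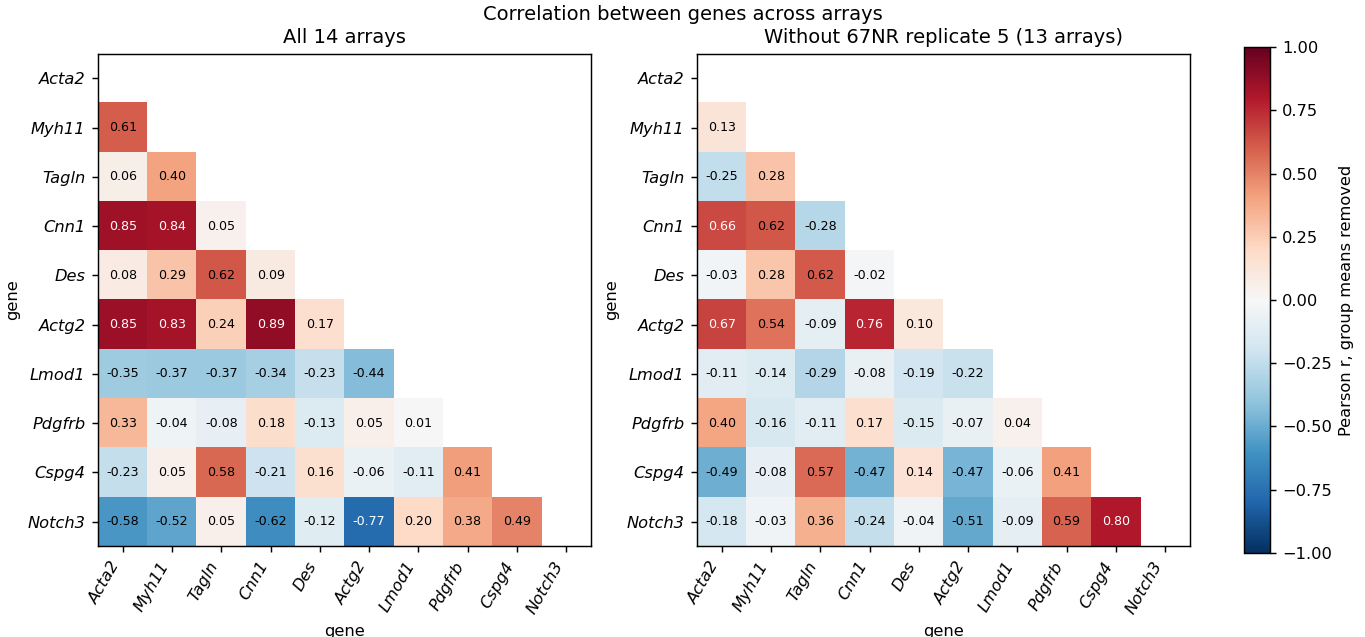
Pearson r between genes across arrays after removal of group means, with all 14 arrays and without 67NR replicate 5. Acta2, Myh11, Cnn1 and Actg2 form the block of high r (0.61 to 0.89) with all arrays, which spans 0.13 to 0.76 without that array.

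The genes Acta2, Myh11, Cnn1 and Actg2 were grouped after their values were seen, so their joint level is given as a description. Their mean deviation from the group mean, on the log2 scale, was -0.12, 0.04, 0.13 and -0.05 in 4T1 lungs, 0.15, -0.01, 0.27, 0.06 and -0.47 in 67NR lungs, and -0.14, -0.03, 0.02, 0.06 and 0.10 in normal lungs. The 67NR lungs thus held both extremes, replicate 3 the highest and replicate 5 the lowest. In 67NR replicate 5 the deviation was -0.36 for Acta2, -0.46 for Myh11, -0.60 for Cnn1 and -0.47 for Actg2. The contractile genes were not all low there, since Des stood at -0.05, Tagln at -0.12 and Lmod1 at 0.21. Among the receptors, Notch3 stood at 0.26 on 1421965_s_at and at 0.01 on its other probe set, 1421964_at. All 6 pairs of these 4 genes had r of 0.61 or more, a value that 4.26% of all pairs of tested genes reached. The value is the lowest r of pairs grouped for being alike, so no conclusion is drawn from that share. Outside the 4 genes, Tagln with Des reached it too (r 0.62).

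Markers of another muscle moved on the same arrays. The 14 cardiac muscle genes, which include atrial genes and can enter lung RNA through the muscle sleeve of the pulmonary veins or adjoining heart, were all tested and 0 stood at 0. Their mean deviation was 0.01, 0.02, -0.22 and 0.19 in 4T1 lungs, 0.20, -0.22, 0.43, 0.05 and -0.46 in 67NR lungs, and -0.25, -0.25, 0.11, 0.25 and 0.13 in normal lungs. The 67NR extremes were the same arrays as for the smooth muscle genes, but 4T1 replicate 3 was low for the cardiac genes and high for the smooth muscle genes. Summed cardiac intensity spanned 15695 to 19375 in 4T1, 12170.1 to 22522 in 67NR and 13188 to 18503 in normal lungs. Fat markers (3 genes) stood at -0.42 in 67NR replicate 5 and 0.68 in replicate 3. In the same order, endothelial markers (11 genes) stood at 0.10 and -0.04, and airway epithelial markers (7 genes) at -0.05 and 0.05. The 1 tested skeletal muscle marker stood at -0.41 and 0.38. The 26 tested genes of the contractile apparatus list, described below, stood at -0.08 and 0.05. The 12 of the SRF and myocardin list stood at -0.01 and 0.14. A list of 8 clock output genes, chosen after the data were seen, stood at 1.11 in 67NR replicate 5. It stood at -1.36 and -0.76 in replicates 1 and 3. These deviations are from a low 67NR mean log2 level of 9.24, beside 10.42 in normal and 10.44 in 4T1 lungs. The clock output level itself was 10.35 in replicate 5, near the normal mean, and 7.88 and 8.48 in replicates 1 and 3. The part of all these listed genes or of the tissue they mark in the smooth muscle values was not tested.

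**Figure D4:**
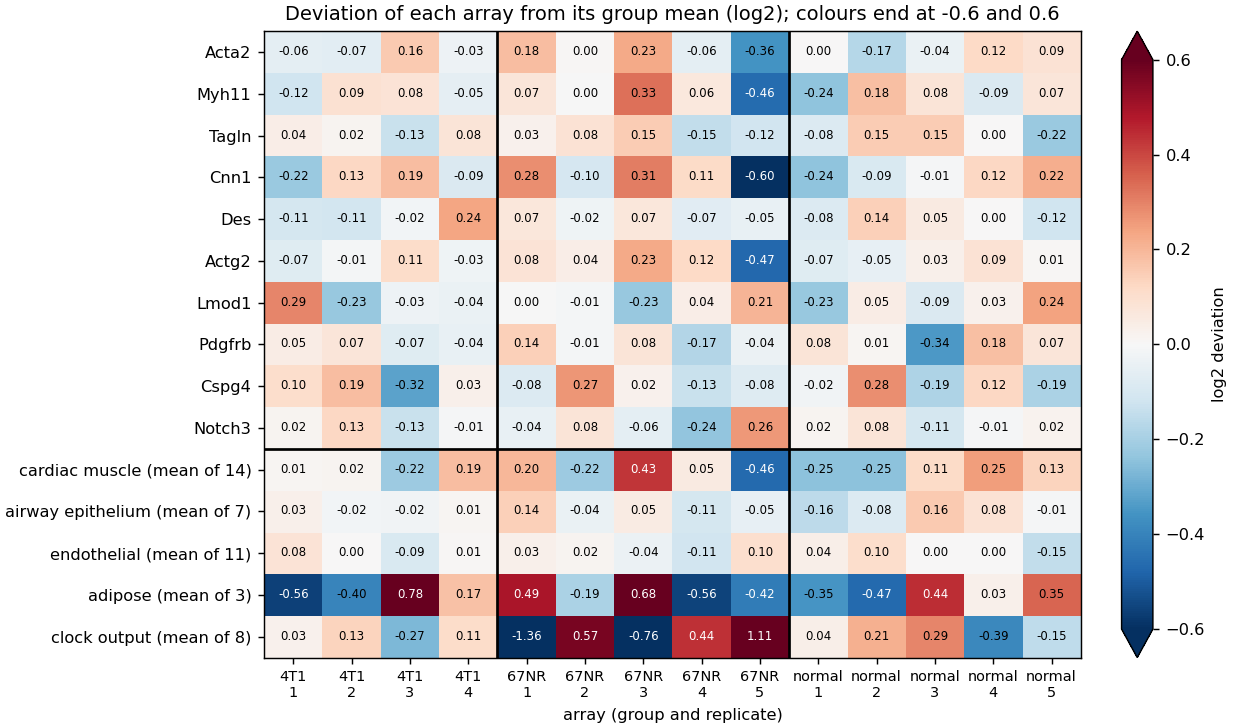
Deviation of each array from its group mean on the log2 scale, for the 10 genes and for the mean of 5 marker lists, with arrays in columns (4T1, 67NR, normal). The column of 67NR replicate 5 is low for Acta2, Myh11, Cnn1, Actg2 and cardiac muscle. It is high against the 67NR mean for Lmod1, Notch3 (1421965_s_at) and clock output. The clock output level of that array, 10.35, was near the normal mean of 10.42.

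Outside the set, 5 genes followed the mean log2 level of the 7 contractile genes most closely, by Pearson r over 14 arrays after removal of group means. They were Actc1, the cardiac alpha actin (r 0.88, and 0.78 without 67NR replicate 5), Gdpd5 (0.87 and 0.69), Mfsd3 (0.87 and 0.73), Ell2 (0.87 and 0.86) and Ube2e2 (0.86 and 0.71). They were picked as the highest among all genes tested, so these r values are a description. Their Spearman rho spanned 0.64 (Ube2e2) to 0.82 (Mfsd3). The 7 genes did not all follow their own mean. Acta2, Myh11, Cnn1 and Actg2 had r of 0.81, 0.91, 0.90 and 0.91 with it. Tagln, Des and Lmod1 had 0.37, 0.36 and -0.26. Actc1 intensities were 2599, 2639, 2481 and 2658 in 4T1 lungs, 2792, 2288, 3194, 2492 and 1827 in 67NR lungs, and 2156, 2273, 2402, 2769 and 2696 in normal lungs. Its highest and lowest arrays were 67NR replicates 3 and 5, as for Acta2, Myh11 and Cnn1. For Actg2 the lowest was also 67NR replicate 5, and the highest was 4T1 replicate 3.

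The rest of the contractile pathway did not pass the test either. Of a list of 30 further genes of the contractile apparatus (light chains, myosin phosphatase, tropomyosins, actin crosslinkers and others), 26 were tested, and 0 were called in each of the 3 comparisons. Their median log2 change was 0.02 in 4T1 against normal, -0.05 in 67NR against normal and 0.06 in 4T1 against 67NR lungs. The smallest p-values belonged to Vcl, vinculin of the cell's adhesion plaques (log2 change -0.09, adjusted p 0.708 by limma), in 4T1 against normal lungs, to Myl6, a myosin light chain (-0.24, adjusted p 0.437), in 67NR against normal lungs, and to Flna, an actin crosslinker (0.16, adjusted p 0.245), in 4T1 against 67NR lungs. Of 15 symbols for SRF, myocardin and other regulators of smooth muscle transcription, older and newer names of a gene included, 12 were tested and 0 called in any comparison, with medians of -0.05, -0.05 and 0.01 for 4T1 against normal, 67NR against normal and 4T1 against 67NR lungs. Klf4, a repressor of contractile genes, had a log2 change of -0.30 in 67NR against normal lungs (adjusted p 0.468 by limma), and Myocd, myocardin itself, 0.28 (adjusted p 0.518). Gata6, a transcription factor of vascular smooth muscle, had -0.31 in 4T1 against 67NR lungs (adjusted p 0.122 by limma).

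Genes around the receptors were likewise uncalled. Of 5 genes that encode PDGF ligands or the alpha receptor, 4 were tested and 0 called in any comparison. Pdgfra, the alpha receptor of fibroblasts, had a log2 change of 0.17 ± 0.05 in 67NR against normal lungs (SE; adjusted p 0.345 by limma), and Pdgfb, the ligand of Pdgfrb, had -0.06 in 4T1 against normal lungs (adjusted p 0.965). Of 14 Notch ligands, receptors, cofactors and targets other than Notch3, 13 were tested and 0 called. Hes1, a Notch target, had a log2 change of -0.41 ± 0.16 in 4T1 against normal lungs (SE; adjusted p 0.628 by limma) and -0.42 ± 0.16 in 4T1 against 67NR lungs (adjusted p 0.297). Heyl, a Notch target of mural cells that is also on the pericyte list, had 0.29 in 67NR against normal lungs (adjusted p 0.541 by limma) and -0.34 in 4T1 against 67NR lungs (adjusted p 0.345). Of 20 further pericyte symbols, older and newer names included, 15 were tested and 0 called, with median log2 changes of 0.02 in 4T1 against normal, 0.01 in 67NR against normal and -0.04 in 4T1 against 67NR lungs. Abcc9, a channel subunit of pericytes, had a log2 change of 0.19 in 4T1 against normal lungs (adjusted p 0.749 by limma), and Nr2f2, a transcription factor of venous endothelium and mesenchyme, -0.31 in 4T1 against 67NR lungs (adjusted p 0.163). Of 14 receptors that set the tone of smooth muscle, 4 were tested and 0 called.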

How the data were processed

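Lung RNA of 14 samples was measured on Affymetrix mouse arrays. Biotin-labelled cRNA was made from 3 µg of total RNA, per the labels' protocols. The authors deposited linear probe set intensities, and their summarising and normalising steps are not given in the sources used. Groups came from sample titles. Probe sets were named by the platform annotation, and the Entrez identifiers of all 10 genes matched RefSeq with 0 symbols changed. Log2(intensity + 16) was computed from the deposited intensities without further normalisation. Adding 16 understates changes of dim genes. Each gene was represented by its singly named probe set with the highest mean, and the upper 60% of genes by mean level (log2 over 7.35, 10916 genes) were tested. A mean per group was fitted with limma 3.58.1 in R 4.3.3 (11 residual degrees of freedom, two-sided, Benjamini-Hochberg adjustment). No detection calls were used, and the number of arrays limits the precision. The steps were tested on simulated data. Correlations used numpy 2.4.6.

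The 10 genes and the gene lists were chosen with earlier results of these data known. All 10 genes are named whatever their result. Of each companion list, any gene past the threshold, or otherwise the 2 with the smallest p in each comparison, could be named, and likeness was limited to the 5 genes with the highest r. Alternatives covered normalisation, offset, level filter, probe set choice, variance model, array weights, fits of only the groups compared, leaving out each array, and the replicate number as a block. Same-numbered arrays of different groups had deviations from group means that correlated between -0.34 and 0.22 over 13 pairs (median 0.03), beside -0.28 to 0.36 over 52 pairs of other numbers (median -0.02), so the numbers were not taken to pair samples.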

Additional observations from a re-analysis of the deposited data

Results flagged for a closer look

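Each probe set was examined in each group for an array far from the others, by the gap to its nearest neighbour over the group's range (Dixon's 95% critical value). Of 51 groups 5 held such an array, and chance gives about 1 in 20 for independent groups of normally distributed values. These groups share arrays, and some share a gene, so the count is a description. Among 4T1 lungs, Acta2 in replicate 3 stood at 6649.8, and the nearest 4T1 lung at 5847. In 67NR lungs, Actg2 in replicate 5 stood at 434 with the nearest 67NR lung at 625, on the array that was also lowest for Acta2, Myh11 and Cnn1. The 3 other cases were of dim or lesser probe sets. The probe set 1456658_at of Acta2 stood at 52.8 in 67NR replicate 2 (nearest 40.9). The probe set 1444105_at of Acta2 stood at 38.1 in normal replicate 2 (nearest 7.40), and both lay under the level filter. The probe set 1423341_at of Cspg4 stood at 137 in normal replicate 5 (nearest 172).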

How the results depend on the processing

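Under 26 alternatives, 774 log2 changes of the 10 genes were recomputed: 735 kept their direction, 39 took the other, and 0 passed the threshold (lowest adjusted p 0.130 by limma). The calls of 0 among the 10 genes held in every alternative. With probe sets of a gene averaged, the log2 change in 4T1 against normal lungs was -0.20 for Myh11. In 67NR against normal lungs it was -0.055 for Acta2, -0.097 for Myh11, -0.033 for Des and 0.0036 for Notch3, and in 4T1 against 67NR lungs -0.10 for Myh11 and 0.0040 for Cspg4. With array weights, it was 0.018 for Tagln and 0.047 for Cnn1 in 67NR against normal lungs, and -0.059 for Acta2, 0.0066 for Lmod1 and 0.013 for Cspg4 in 4T1 against 67NR lungs. Quantile normalisation gave -0.017 for Acta2 in 4T1 against 67NR lungs. The cause was not tested. Leaving out each array gave, in 4T1 against normal lungs, -0.0079 to 0.11 for Des and -0.0094 to 0.077 for Notch3. In 67NR against normal lungs it gave -0.060 to 0.14 for Myh11, -0.074 to 0.019 for Tagln, -0.093 to 0.13 for Cnn1 and -0.046 to 0.086 for Pdgfrb. In 4T1 against 67NR lungs it gave -0.084 to 0.063 for Acta2, -0.036 to 0.16 for Myh11, -0.046 to 0.18 for Cnn1, -0.052 to 0.064 for Des, -0.11 to 0.063 for Lmod1 and -0.080 to 0.088 for Cspg4. With the upper 40% of genes tested, Lmod1 and Cspg4 dropped out.

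The replicate block called 45, 0 and 57 of all genes in 4T1 against normal, 67NR against normal and 4T1 against 67NR lungs, 0 of them among the 10. Samples share only a number, and the block gave -0.028 for Acta2 and 0.044 for Lmod1 in 4T1 against 67NR lungs. The count of all genes called in 4T1 against normal lungs (45) was 26 with the upper 40% of genes and 29 with only the groups compared, and 32 to 66 leaving out each array. In 67NR against normal lungs (0 called; 997 at an unadjusted limma p under 0.05), 1 was called without a level filter and 1 over all probe sets. In 4T1 against 67NR lungs (83), 184 were called with array weights, 50 with only the groups compared, and 41 (without 4T1 replicate 1) to 168 (without 67NR replicate 5) leaving out each array. Gene pairs past the threshold (4) numbered 0 by Spearman correlation and 0 to 5 leaving out each array, with 0 without 4T1 replicate 1 or 67NR replicates 2, 3 or 5. Leaving out arrays for the pairs, and the Spearman form, were chosen after seeing the data. Dim genes limit what could be seen: Lmod1 and Cspg4 lay close above the level filter, and no detection call showed whether their signal exceeded background.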
